A study of Macaca mulatta with 8 samples.

Results

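The regions described here are stretches of the rhesus macaque genome that hold lifted peaks only. An ATAC-seq peak marks DNA that Tn5 transposase reached, and a lifted peak is one whose name says that it was carried over from other coordinates. The deposited table lists 112696 merged regions and the names of the peaks in each. The members were chosen by those names: every peak name ends in the tag for lifted peaks, and none carries the tag of a macaque stage. This rule took 40338 regions. Another 45827 regions held lifted and stage peaks, and 26531 held stage peaks alone. The absence of a stage peak is therefore the rule itself and no finding, and a region without one may have been open below the calling threshold.

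Open chromatin falls into promoters, which lie at transcription starts and tend to be open in many cell types, and distal elements such as enhancers, which are used more selectively. Transcription factors bind short sequence words in both. Lifting moves a peak from one assembly to another through aligned sequence, and duplicated copies can land on 1 place.

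The study prepared 8 Omni-ATAC libraries from cultured cortex cells of rhesus fetuses at post-conceptional day 50, 60, 80 or 85, named E50, E60, E80 and E85. Each stage had 1 biological sample and 2 technical libraries of it, so no stage has a replicate check. The tissue had been frozen and was dissociated with papain, and the cells grew in a medium that favours progenitors, with FGF2, EGF and BDNF. The labels name no genotype, allele or drug that differs between the stages, and all of them passed through the freezing and the culture. The lifted peaks carry the codes H14, H16, H22 and H23, which the labels do not define, and they are used below as names of peak sets. Ranges in parentheses after a share are 95% Clopper-Pearson intervals (exact). They cover counting error only, since regions are not replicates of a condition. Promoters of all 8 telencephalon identity genes examined, EMX1 and OTX1 among them, held a stage peak. This was common, since only 759 of 14891 protein-coding genes with a promoter region had none there. Stage peaks were also at 3 of 4 midbrain, hindbrain and spinal cord promoters. They were at 5 of 6 endothelial and 7 of 10 mesenchyme and mural cell promoters. No promoter region of any kind was found for the 12 microglia genes.

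Sequences of 8 members are shown first because each stands for a pattern described below. All were read from the plus strand of rheMac10 (Mmul_10) and are at most 200 bases from the middle of the region. Capitals mark every match, on either strand, to a list of 19 factor motifs named further on. The first 3 are distal regions on which many lifted peaks landed: in a transcribed pseudogene (chr10:36521140-36521339), in an intron of NSF (chr16:57290886-57291085) and in an annotated pseudogene, MTRNR2L6, whose sequence here resembles the mitochondrial genome (chr3:169153423-169153622). The next 2 lie at the promoters of RPS3 (chr14:68468675-68468874) and COL1A2 (chr3:111731742-111731941). The last 3 come from introns of QKI (chr4:7316196-7316395), TCF4 (chr18:24779346-24779545) and CDH4 (chr10:97042762-97042956). The TCF4 and CDH4 examples were picked after their motifs were seen, as a region of H14 alone with an AP-1 word and a region of H23 alone with a CTCF match.
Pseudogene region: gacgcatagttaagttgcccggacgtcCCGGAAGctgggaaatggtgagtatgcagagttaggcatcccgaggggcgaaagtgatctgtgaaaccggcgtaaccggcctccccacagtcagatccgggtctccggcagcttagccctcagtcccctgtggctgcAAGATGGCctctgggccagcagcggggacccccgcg
NSF intron region: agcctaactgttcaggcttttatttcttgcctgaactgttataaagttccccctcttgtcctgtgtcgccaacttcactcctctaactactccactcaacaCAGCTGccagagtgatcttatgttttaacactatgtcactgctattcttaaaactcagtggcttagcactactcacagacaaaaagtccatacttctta
Mitochondrial-like region: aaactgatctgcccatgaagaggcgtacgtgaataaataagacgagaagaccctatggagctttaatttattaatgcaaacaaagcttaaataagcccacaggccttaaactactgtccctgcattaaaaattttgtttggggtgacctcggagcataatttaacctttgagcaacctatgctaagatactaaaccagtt
RPS3 promoter region: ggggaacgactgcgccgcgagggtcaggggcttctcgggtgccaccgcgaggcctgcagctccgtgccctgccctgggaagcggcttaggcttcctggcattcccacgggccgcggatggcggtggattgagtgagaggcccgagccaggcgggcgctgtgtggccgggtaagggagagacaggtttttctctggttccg
COL1A2 promoter region: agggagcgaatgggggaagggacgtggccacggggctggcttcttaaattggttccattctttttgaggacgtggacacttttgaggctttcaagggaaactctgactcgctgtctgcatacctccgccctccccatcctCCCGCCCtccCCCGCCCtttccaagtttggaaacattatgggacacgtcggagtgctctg
QKI intron region: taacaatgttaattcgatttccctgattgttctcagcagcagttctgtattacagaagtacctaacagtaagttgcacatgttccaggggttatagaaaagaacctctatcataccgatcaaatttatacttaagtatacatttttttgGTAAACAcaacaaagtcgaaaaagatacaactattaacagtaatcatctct
TCF4 intron region: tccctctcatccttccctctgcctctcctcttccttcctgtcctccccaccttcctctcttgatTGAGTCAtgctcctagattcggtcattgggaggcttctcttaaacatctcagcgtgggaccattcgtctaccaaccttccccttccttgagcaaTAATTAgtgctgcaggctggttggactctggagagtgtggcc
CDH4 intron region: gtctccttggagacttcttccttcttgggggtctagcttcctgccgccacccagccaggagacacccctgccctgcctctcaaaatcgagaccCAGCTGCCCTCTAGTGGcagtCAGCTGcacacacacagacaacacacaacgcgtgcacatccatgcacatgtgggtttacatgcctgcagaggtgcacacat

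Most lifted-only regions came from H14, from H23 or from both. H23 alone accounted for 11531 regions, H14 with H23 for 10140 and H14 alone for 9808. H14, H22 and H23 together gave 4474, all 4 codes 2420, and H22 with H23 1147. The other 9 combinations held 330 regions or fewer, with 56 for H16 alone and 330 for H22 alone. H23 was present in 74.1% of the lifted-only regions, H14 in 67.1%, H22 in 21.7% and H16 in 6.89%. The sets differ in size: H14 had 71615 peaks, H23 75146, H22 42871 and H16 25822.

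**Figure D1:**
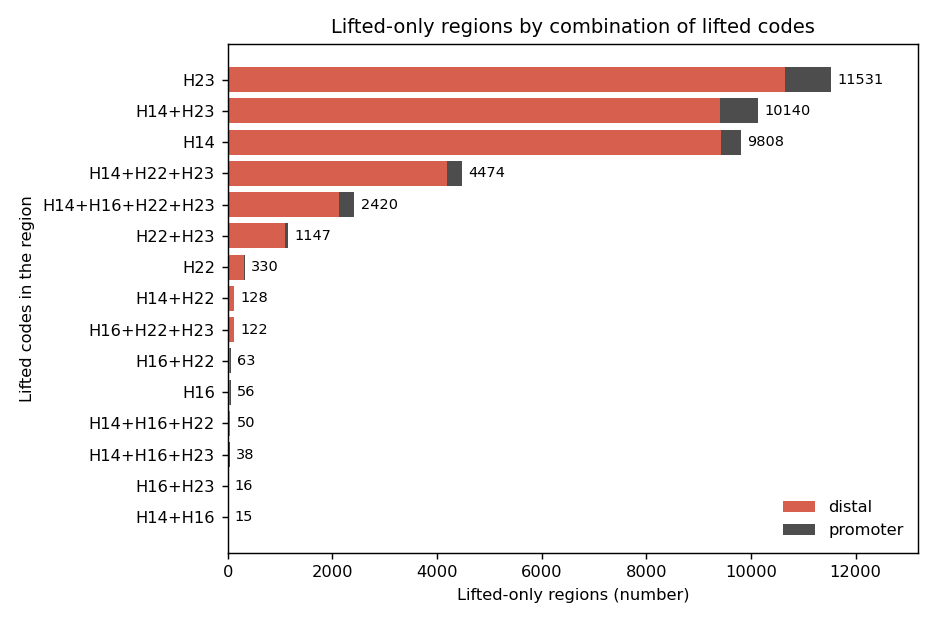
Number of lifted-only regions (horizontal axis) for each combination of lifted codes (vertical axis), with distal regions in red and promoters in dark grey. The 3 combinations made of H14 and H23 alone hold 11531, 10140 and 9808 regions.

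Of all 86165 regions with a lifted peak, 46.8% were lifted-only, and the codes differed in this share. Among regions with an H23 peak it was 41.7% (41.3 to 42.0), and with an H14 peak 40.2% (39.8 to 40.5). It was 22.5% for H22 and 11.9% (11.5 to 12.4) for H16. The order followed the size of the sets, and set size and code cannot be told apart here. At promoters the shares were 13.8% for H23, 11.0% for H14, 5.21% for H22 and 3.05% for H16. At distal regions they were 49.9%, 48.7%, 31.1% and 19.4% in the same order.

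The more lifted codes a region held, the less often it was lifted-only. Of regions with 1 lifted code, 75.4% (74.9 to 75.9) held no stage peak. The share was 53.6% with 2 codes, 33.7% with 3 and 11.0% (10.6 to 11.4) with 4. At promoters it went from 57.9% with 1 code to 2.80% (2.49 to 3.14) with 4. At distal regions it went from 76.8% to 18.1% (17.4 to 18.8). A region open in all 4 lifted sets was thus rarely without a stage peak at a promoter, and lacked one more often at a distal site. Even so, 2420 lifted-only regions held all 4 codes, 2136 of them distal. Among all lifted-only regions, 21725 held 1 code, 11509 held 2 and 4684 held 3, so 46.1% (45.7 to 46.6) held several.

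Lifted-only regions were narrow. Their median width was 307 bp, with quartiles of 236 and 443 bp, against 663 bp for regions with lifted and stage peaks and 307 bp for stage-only regions. Width increased with the number of codes, from a median of 265 bp with 1 code to 317, 458 and 668 bp with 2, 3 and 4. Regions that also held a stage peak were wider at each step, at 392, 424, 586 and 1039 bp. Merging more peaks into a region can widen it, and that share of the difference was not tested. On 20 of 20 autosomes the median was lower than in regions with lifted and stage peaks, and on 5 of 20 lower than in stage-only regions.

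Few lifted-only regions lay at promoters. A promoter here is a region within 1000 bp of a transcription start that NCBI annotates, coding or lncRNA, and 2676 members met this, or 6.63% (6.39 to 6.88). The share was 32.0% (31.6 to 32.4) in regions with both kinds of peak and 7.89% (7.57 to 8.22) in stage-only regions. Introns held 47.6% of the lifted-only regions, intergenic DNA 39.4% and exons 6.37%. The promoter share was below that of regions with both kinds of peak on 20 of 20 autosomes, and below that of stage-only regions on 15 of 20. By code, it was 7.65% (7.17 to 8.15) for H23 alone and 3.83% (3.46 to 4.23) for H14 alone. Distal regions of H14 alone lay a median of 40352 bp from the nearest start and those of H23 alone 26506 bp.

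The promoters in the set differed in composition from those that held a stage peak. Their GC content had a median of 53.8%, against 67.8% at promoters with both kinds of peak and 60.5% at stage-only promoters. Their observed to expected ratio of CpG dinucleotides, a measure of CpG islands, was 0.376 against 0.816 and 0.486. Their centres lay a median of 475 bp from the start, against 162 and 341 bp. The 284 promoters with all 4 codes stood apart from the rest of the set: GC content was 63.0% and the CpG ratio 0.706, against 52.8% and 0.363 for promoters of 1 code.

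Stage peaks are numbered along each chromosome, and some numbers are missing from the table. A missing number that falls between consecutive peaks of the same chromosome can be placed in that interval. Missing numbers were 34.8% of the E50 series, 12.6% of E60, 16.4% of E80 and 26.5% of E85. Of these, 2759, 5333, 5817 and 3636 in the same order were placed in an interval, and the others were not. The numbers increased with position at every step in all 4 stage sets. Between consecutive E60 peaks, a number was missing in 12.3% (11.8 to 12.7) of the 21863 intervals that held a lifted-only region and in 4.19% of the 37736 intervals that held none. In intervals under 5000 bp the shares were 5.19% and 1.42%, and at 50000 bp or more 14.4% and 9.83%. The same direction was seen in every length class of E50, E60, E80 and E85. Thus a numbered stage peak absent from the deposited table lay in the same interval as a lifted-only region more often than in other intervals, though not necessarily at the region itself.

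The share of regions in an interval with a missing number was highest for the lifted-only promoters of 4 codes. Of these, 66.8% (61.0 to 72.2) lay in an interval with a missing E60 number and 68.6% (62.8 to 73.9) in one with a missing E80 number. The shares were 56.0% for E50 and 62.1% for E85. Promoters of 1 code had 18.2% for E60, distal regions of 1 code 11.9% and distal regions of 4 codes 20.2%. In all, 12043 lifted-only regions, or 29.9%, lay in an interval with a missing number of at least 1 stage. Without them, 28295 regions remained, and the share of 4-code promoters that were lifted-only was 0.756% in place of 2.80%. Only lifted-only regions were left out, while regions with a stage peak in the same intervals stayed. The share could therefore only fall, and the fall is not a test of the missing numbers. What removed these numbers is not given in the sources used here. Whether a stage peak was once called at these regions themselves was not tested.

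**Figure D2:**
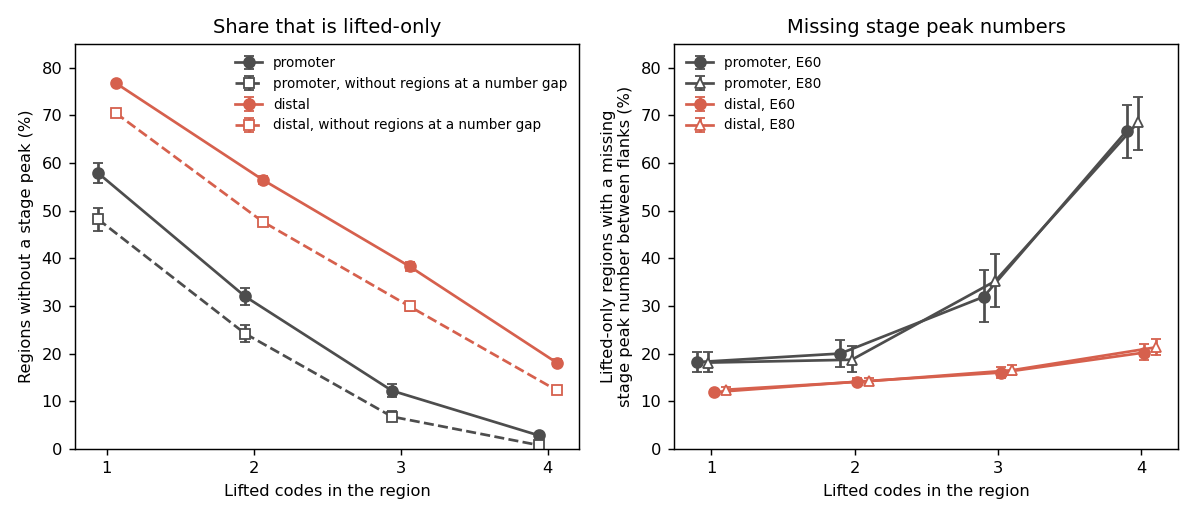
Left, percent of regions with a lifted peak that hold no stage peak, by number of lifted codes, for promoters (grey) and distal regions (red), with all regions (filled) and without lifted-only regions in an interval with a missing stage peak number (open). Right, percent of lifted-only regions with a missing E60 (filled) or E80 (open) number between the flanking stage peaks; bars are exact 95% intervals, and the 4-code promoters stand at 66.8% and 68.6%.

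Lifted-only regions were found on every autosome and at a range of distances from stage regions. The nearest region with a stage peak lay a median of 8620 bp away, with quartiles of 2499 and 23752 bp. Of the 40335 with such a region on their sequence, 13.6% lay within 1000 bp of it, 53.6% within 10000 bp and 4.43% lay at least 100000 bp away. Per autosome, 25.6% to 40.7% of all regions were lifted-only. Chromosome 19 had the lowest share, 25.6% (24.2 to 27.1), and chromosome 18 the highest, 40.7% (38.8 to 42.6). The X chromosome had 34.9%. Walking along the chromosomes, the members formed 23636 runs not interrupted by a stage region, 14407 of them of a single region, which is 35.7% of the regions. Only 33 runs held 10 or more. The longest had 25 regions over 2996195 bp (chr12:13507511-16503705), where DPP10 lies.

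The locus with the most lifted-only regions was QKI, which encodes Quaking, an RNA-binding protein of glia and neural progenitors. A locus is the gene body and 5000 bp upstream. QKI (chr4:7180761-7348059) had 47 lifted-only regions, 10 regions with lifted and stage peaks and 0 stage-only regions. Of the 47, 42 held an H23 peak, 21 an H14 peak, 2 an H22 peak and 0 an H16 peak. H23 alone gave 25, H14 with H23 gave 16 and H14 alone gave 4. None of the 47 was a promoter, and the gene's promoter region held peaks of all stages and all lifted codes. E50 peaks were called in 1 region of the locus, E60 peaks in 9, E80 peaks in 8 and E85 peaks in 3. Runs of 16 and 13 lifted-only regions lay within 31096 and 63268 bp. Of the 47, 18 were in an interval with a missing stage number, against 29.9% of all lifted-only regions. Every region of the run of 13 was in such an interval, and no region of the run of 16 was. The QKI sequence printed above comes from the widest region of 3 codes, 2984 bp in the first part of the gene, with 30.9% GC at its centre.

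**Figure D3:**
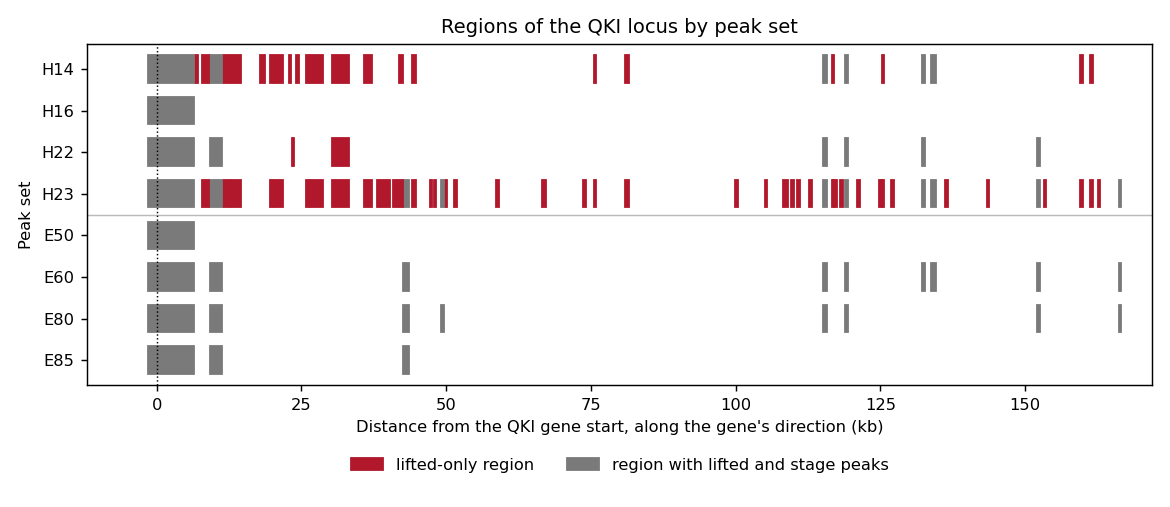
Regions of the QKI locus placed by distance from the gene start in kb (horizontal axis) and by the peak sets they hold (vertical axis), lifted codes above the line and stages below it; narrow regions are drawn wider than scale to be visible. Lifted-only regions are red and fill the H23 lane, where 42 of the 47 have a peak.

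Long genes followed QKI, several of them active in neurons. KAZN, which encodes a scaffold protein of cell junctions, had 37 lifted-only regions of 70 with a lifted peak. SORCS2, a sorting receptor gene of neurons, had 35 of 59, and 27 of its 35 lay in an interval with a missing stage number. TCF4, which encodes a basic helix-loop-helix factor that binds E-boxes, had 35 of 54, and none lay in such an interval. OPCML, an IgLON adhesion gene, had 34 of 64. RBFOX1, a neuronal splicing factor gene, had 33 of 38, or 86.8%, against 42.5% of the regions with a lifted peak over all protein-coding loci. AGAP1, PRKCA and PRKCE had 31 each, and ALK, CDH4 and DPP6 had 30 each. PRKCA and PRKCE encode protein kinases C, ALK a receptor tyrosine kinase and DPP6 an auxiliary subunit of potassium channels. Gene length differs widely among these loci. Lifted-only regions per 100 kb numbered 28.1 at QKI, 9.48 at TCF4 and 1.33 at RBFOX1.

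The codes were unevenly shared among some of these loci. Over all lifted-only regions, 67.1% held an H14 peak and 74.1% an H23 peak. At TCF4, 33 of 35 lifted-only regions held an H14 peak and 13 an H23 peak. At RBFOX1, 32 of 33 held H14 and 10 held H23. The reverse held at QKI, with 42 for H23 and 21 for H14, and at OPCML, with 29 for H23 and 16 for H14. Of the 30 at CDH4, 28 held H23 and 18 held H14. At KAZN the codes were nearly even, with 29 for H14 and 28 for H23.

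At 862 of 17187 protein-coding loci with a region, or 5.02%, every region was lifted-only. Most were small: 649 of the 862 had 1 region and 10 had 5 or more. DPP10, which encodes an auxiliary subunit of voltage-gated potassium channels, had 11. RIT2, a neuronal small GTPase gene, had 7, and ABCA12, which encodes a lipid transporter of skin, had 6. COL1A2 (a chain of type I collagen), DHX34, NCMAP, PDCD1LG2, PTCHD1 and TMC2 had 5 each. BAIAP3, CPAMD8 and IL33 had 4 each. H14 was in all 5 regions of COL1A2 and in 0 of 5 at PTCHD1, an X-linked gene, where all 5 held H23. All regions of such a locus lie in the same interval between flanking stage peaks, so they count together for missing numbers. No stage number was missing in the intervals around PDCD1LG2 and PTCHD1, whereas at least 1 was missing around each of the other 10 named loci. The count of loci with lifted-only regions alone was 411 when lifted-only regions in intervals with a missing number were left out. Such a removal can only lower the count.

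Every promoter region was lifted-only at 759 of 14891 protein-coding genes with a promoter region, or 5.10%. For these genes the best-covered region held 1 code at 247, 2 codes at 212, 3 codes at 125 and 4 codes at 175. Among the 175, 148 lay in an interval with a missing stage number, and among all 759, 417 did. Without lifted-only regions in such intervals, the count of genes, which this removal can only lower, was 344. The 12 named genes with the most codes and the widest regions were ANKRD36C, ACOT2, HEATR4, CHRAC1, NRSN2, HIP1R, B3GAT1, MAMDC4, PHPT1, MON1B, C20H16orf87 and STK25. ACOT2 and HEATR4 share 1 region, and so do MAMDC4 and PHPT1. CHRAC1 encodes a histone-fold subunit of a chromatin remodeller, and B3GAT1 the enzyme that makes the HNK-1 carbohydrate of neural cells. STK25 (chr12:128946915-128948818) encodes a kinase with roles in neuronal polarity, and its region was 1904 bp wide with 81.4% GC. NRSN2, which encodes a neuronal vesicle protein, was the exception among the 12: no number was missing in any stage between the peaks that flank its 2374 bp region (chr10:66224195-66226568).

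Listed genes add a view by cell type. Ribosomal protein genes are active in every cell, and RPS3 was the only one of 12 with a promoter region whose promoter was lifted-only. Its region (chr14:68468400-68469150) held 1 peak of each of the 4 codes. Between the stage peaks that flank it, 1 E50 number, 2 E60 numbers, 3 E80 numbers and 1 E85 number were missing. Most neuronal promoters held a stage peak: 13 of 15 in the interneuron list, 10 of 11 in the pan-neuronal list and 16 of 17 in the postsynaptic list. Over all protein-coding genes with a promoter region, 5.10% had lifted-only promoters alone. The exceptions in the interneuron list were SST and VIP, which encode neuropeptides. The 2 SST regions (chr2:10153106-10153383 and chr2:10153602-10153770) each held H14 and H23, and the VIP region (chr4:58931280-58931477) held H14. MYT1L, a neuronal zinc finger factor gene, had 2 promoter regions of H14 alone. SHANK2, a postsynaptic scaffold gene, had 1 region of H23 alone. The nearest region with a stage peak lay 774 bp from the closer MYT1L region and 16876 bp from the SHANK2 region. For the closer SST region and the VIP region the distances were 9214 and 104541 bp. No stage number was missing around the promoters of SST, MYT1L or SHANK2, while 1 was missing for VIP at E60.

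Stage peaks were present at 11 of 12 astrocyte and 6 of 8 oligodendrocyte lineage promoters. Among the exceptions, AQP4, the water channel of astrocyte endfeet, had a promoter region of H14, H22 and H23 (chr18:55583567-55583932). SOX10 and MBP, a regulator and a myelin protein of oligodendrocytes, had promoter regions of H23 alone. A region with a stage peak lay 828 bp from the AQP4 region, 839 bp from that of SOX10 and 14916 bp from that of MBP. Of 10 mesenchyme and mural cell genes with a promoter region, 7 held a stage peak there and 3 did not. LUM and DCN, which encode proteoglycans of connective tissue, had 1 region each of H14 alone. COL1A2 had 1 of H14 alone and 1 of H14 and H23. ESAM, an adhesion gene of endothelium, and WNT2B each had 1 of H14 and H23. EN1, a midbrain and hindbrain identity gene, and TDGF1 and SALL4, which are active in pluripotent cells, held H23 alone. A region with a stage peak lay 7312 bp from the EN1 region, 10590 bp from that of TDGF1 and 521 bp from the closest SALL4 region. In bulk samples, fewer cells of a type and less open DNA per cell cannot be told apart, so these values do not show which cells lacked a peak.

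The share of lifted-only regions varied among 23 gene lists. Over all protein-coding loci it was 42.5%, and at cadherins and protocadherins, which mediate adhesion between neurons, it was 61.0% (53.0 to 68.6), or 97 of 159. CDH4 led with 30, then PCDH9 with 23 and CDH2 with 13. At postsynaptic scaffolds and glutamate receptors it was 54.8% (48.9 to 60.5), or 161 of 294, led by DLGAP1 with 27, SHANK2 with 24 and DLG2 with 23. Axon guidance genes had 48.6% (43.0 to 54.2), led by PLXNA4 with 19, UNC5C with 18 and SLIT1 with 16. Outer radial glia genes had 52.3% (42.5 to 61.9), led by PTPRZ1 with 21, LIFR with 9 and ITGB5 with 8. GABA receptors and potassium channels had 50.4% (41.5 to 59.3), led by KCNMA1 with 16 and KCND2 with 10. Promoters were less often lifted-only than distal regions, at 13.8% against 49.9% among regions with an H23 peak. The lists differ in this mix: cadherins had 198 regions and 12 genes with a promoter region, ribosomal protein genes 21 and 12. The shares were not adjusted for it, so their order cannot be read as one of gene function.

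The intermediate progenitor, telencephalon identity, stress and AP-1, ribosomal protein and cell cycle lists had shares below that of all protein-coding loci, and for the cell cycle list the interval includes it. Intermediate progenitor genes had 2 lifted-only regions of 20, or 10.0% (1.23 to 31.7), both at ELAVL4. EOMES, which defines these progenitors, had none. Stress and AP-1 genes had 3 of 28, or 10.7% (2.27 to 28.2), 2 of them at ATF3 and 1 at FOSB. Ribosomal protein genes had 2 of 18, at RPL13 and RPS3. Telencephalon identity genes had 4 of 31, or 12.9% (3.63 to 29.8), with 1 each at EMX1 and OTX1 among them. Cell cycle genes had 4 of 19, with 1 each at MKI67, CCNB2 and CENPF among them.

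The lists of radial glia, layer neurons, interneurons, pan-neuronal genes, astrocytes and oligodendrocytes had shares from 38.2% to 48.9%. Radial glia genes had 43.2% (34.6 to 52.1), led by SLC1A3 and SOX2 with 18 each and GLI3 with 7. At SOX2, 18 of 18 held H23 and 3 held H14, and at SLC1A3, a glutamate transporter gene, 17 held H14 and 8 held H23. Deep-layer neuron genes had 48.9%, with SOX5 at 22, LDB2 at 10 and BCL11B at 7. Upper-layer neuron genes had 40.6%, with CUX1 at 18, UNC5D at 6 and MEF2C at 5. Interneuron genes had 48.7%, with ERBB4 at 13 and GAD1 at 9. All 9 GAD1 regions, at the gene of a GABA-synthesising enzyme, held H23 and 0 held H14. Astrocyte genes had 42.1%, with NFIA at 24, NFIB at 16 and NFIX at 8. Pan-neuronal genes had 38.2%, with MAP2 at 16, MYT1L at 10 and SYT1 at 8. Oligodendrocyte lineage genes had 44.0%, with MBP at 6 and CSPG4 and GPR17 at 3 each.

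Lists of other cell types had few regions and wide intervals. Microglia genes had 7 lifted-only of 11 (63.6%, 30.8 to 89.1), with 3 each at CSF1R and P2RY12 and 1 at PTPRC. Pluripotency genes had 8 of 14, with 4 at SALL4, 2 at DNMT3B and 1 at LIN28B. Endothelial genes had 16 of 29, with 6 at VWF and 2 each at ERG and PECAM1. Mesenchyme and mural cell genes had 12 of 26, with 5 at COL1A2, 2 at PDGFRB and 1 at ACTA2. Midbrain, hindbrain and spinal cord genes had 13 of 30, with 5 at PAX8, 3 at PAX5 and 2 at EN2. Choroid plexus and hem genes had 8 of 19, with 2 at RSPO2 and 1 each at AQP1 and FOXJ1.

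**Figure D4:**
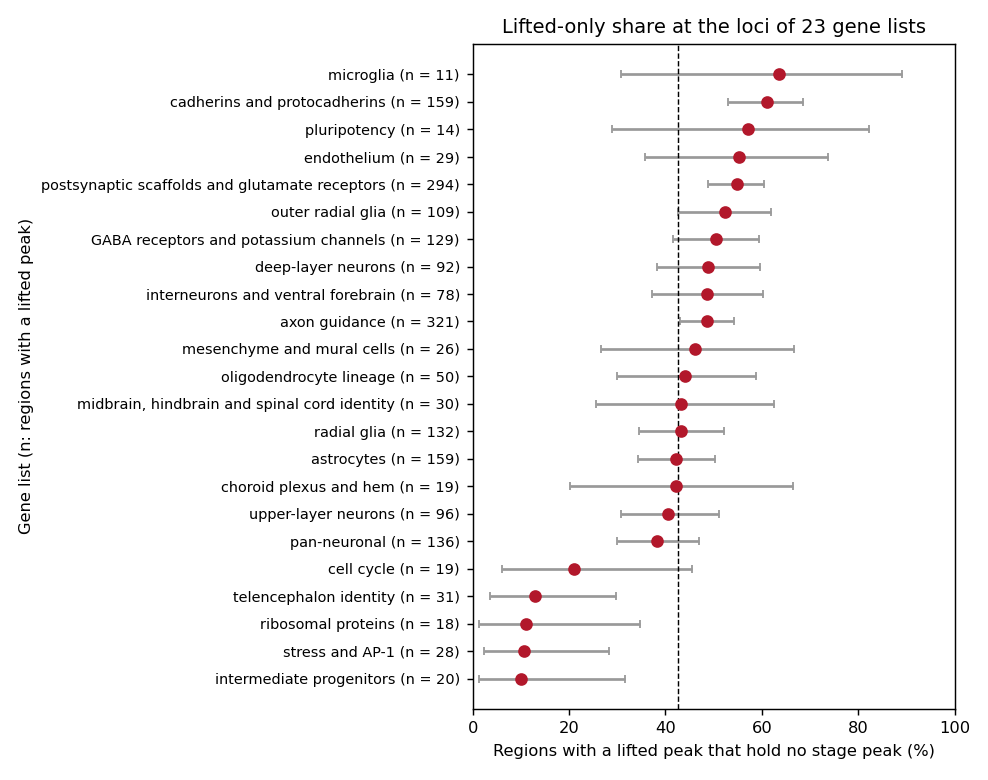
Percent of regions with a lifted peak that hold no stage peak (horizontal axis) at the loci of each gene list (vertical axis, n is the number of regions with a lifted peak); bars are exact 95% intervals and the dashed line is the 42.5% of all protein-coding loci. Cadherins and protocadherins stand at 61.0% and intermediate progenitor genes at 10.0%.

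Sequence words were counted in distal regions within 150 bp on each side of the centre, on both strands. AP-1, the FOS and JUN family of activity- and stress-responsive factors, binds TGACTCA. This word was in 11.1% (10.8 to 11.5) of lifted-only regions, in 18.9% (18.5 to 19.3) of regions with both kinds of peak and in 34.5% (33.9 to 35.1) of stage-only regions. It was found in 19.8% of all distal regions. The lifted-only share was below both others on 20 of 20 autosomes, between 8.16% and 13.4%. It was also below both in each of 8 classes of GC content, for example 11.6% against 22.7% and 38.2% at 45 to 50% GC. The same letters reversed, a control of equal composition, gave 5.69%, 5.44% and 7.75%. Among stage regions the share differed between the stage sets, each of which came from 1 culture. It was 47.7% in stage-only regions of E80 alone and 15.9% in those of E60 alone. Stage-only regions of E85 alone had 9.12% (6.83 to 11.9). Regions with lifted peaks and an E60 peak alone had 7.21% (6.52 to 7.95), which is below the lifted-only share.

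CTCF, which binds insulators and loop anchors, matched its consensus in 1.58% (1.45 to 1.71) of lifted-only distal regions. The share was 4.16% (3.94 to 4.39) where a stage peak was also present and 1.44% (1.30 to 1.60) in stage-only regions, or 3.45% and 1.28% at the GC content of the lifted-only regions. KLF/SP factors, which bind GC-rich promoters, have the word GGGCGGG, found in 3.57%, 9.35% and 6.47%. At the GC content of the lifted-only regions the last 2 values were 5.12% and 4.77%. GC content of distal regions had a median of 46.8%, against 50.2% and 48.2%. The SOX word ACAAAGG was in 8.43%, 9.85% and 9.37%, and the homeobox word TAATTA in 8.55%, 9.45% and 11.0%. At the GC content of the lifted-only regions the homeobox values of the other classes were 11.9% and 12.3%. The ETS word CCGGAAG was in 1.64%, 2.54% and 1.99%, and the last 2 values were 1.89% and 1.70% at that GC content.

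Some words were more frequent in lifted-only regions. The E-box CAGATG, bound by proneural factors such as NEUROG2, was in 26.1% (25.6 to 26.5), against 23.8% and 22.6%, or 24.2% and 22.6% at the GC content of the lifted-only regions. Its share was below that of each other class on 1 of 20 autosomes. The GATA word AGATAAG was in 2.69% (2.53 to 2.86), against 1.97% and 2.05%, or 2.21% and 2.17% at the GC content of the lifted-only regions. The FOX word TGTTTAC was in 4.69%, against 3.91% and 4.23%, but against 4.52% and 4.55% at that GC content. The YY1 word AAGATGGC was in 1.32%, against 1.14% and 0.937%, and the first 2 intervals overlap. The TEAD word ACATTCC, at 6.31%, 6.15% and 6.59%, and the PU.1 word GAGGAAGT, at 2.11%, 2.09% and 2.05%, had overlapping intervals. The NFI word TTGGCA was in 24.5% (24.1 to 24.9) of lifted-only regions and 23.7% (23.2 to 24.2) of those with both kinds of peak, with overlapping intervals, and the latter value was 25.2% at the lifted-only GC content. The E-box CAGCTG was in 24.2%, 27.1% and 24.5%. The POU word ATTTGCAT was in 3.00%, 3.22% and 3.55%, and the STAT word TTCCNGGAA in 1.46%, 1.28% and 1.34%. The CRE word TGACGTCA, the NRF1 word GCGCATGC and the REST consensus were in under 1% of each class. Such words are short and a match is not a bound site.

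Within the set, regions of H14 alone and of H23 alone differed in sequence. AP-1 was in 18.9% (18.1 to 19.7) of 9432 distal regions of H14 alone and in 5.57% (5.14 to 6.02) of 10649 of H23 alone. The H14 value was higher on 20 of 20 autosomes, and at the GC content of H14 the H23 value was 5.89%. The NFI word, bound by nuclear factor I proteins of glial differentiation, was in 29.5% (28.6 to 30.4) and 20.0% (19.2 to 20.8), higher for H14 on 20 of 20 autosomes. The homeobox word was in 11.3% (10.6 to 11.9) and 7.24% (6.75 to 7.75), again on 20 of 20. The H23 regions led in the E-box CAGCTG, bound by helix-loop-helix factors, with 27.8% (26.9 to 28.6) against 21.5% (20.6 to 22.3). They also led in CTCF, with 2.01% (1.75 to 2.29) against 0.424% (0.303 to 0.577). For both of these, H14 was above H23 on 0 of 20 autosomes. The reversed AP-1 control was 6.56% in H14 alone and 5.18% in H23 alone, a smaller gap in the same direction.

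Regions that both codes shared were not intermediate in all motifs. With H14 and H23 together, AP-1 was in 7.69% (7.16 to 8.25) and the NFI word in 24.5%, between the single-code values. CTCF was in 3.03% (2.69 to 3.39), above both. H22 alone had AP-1 in 24.0% (19.4 to 29.1) of 317 distal regions. The TCF4 sequence printed above shows the AP-1 word on the minus strand, as TGAGTCA, and a homeobox word. The CDH4 sequence shows the CTCF match overlapping 1 of its 2 CAGCTG words.

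**Figure D5:**
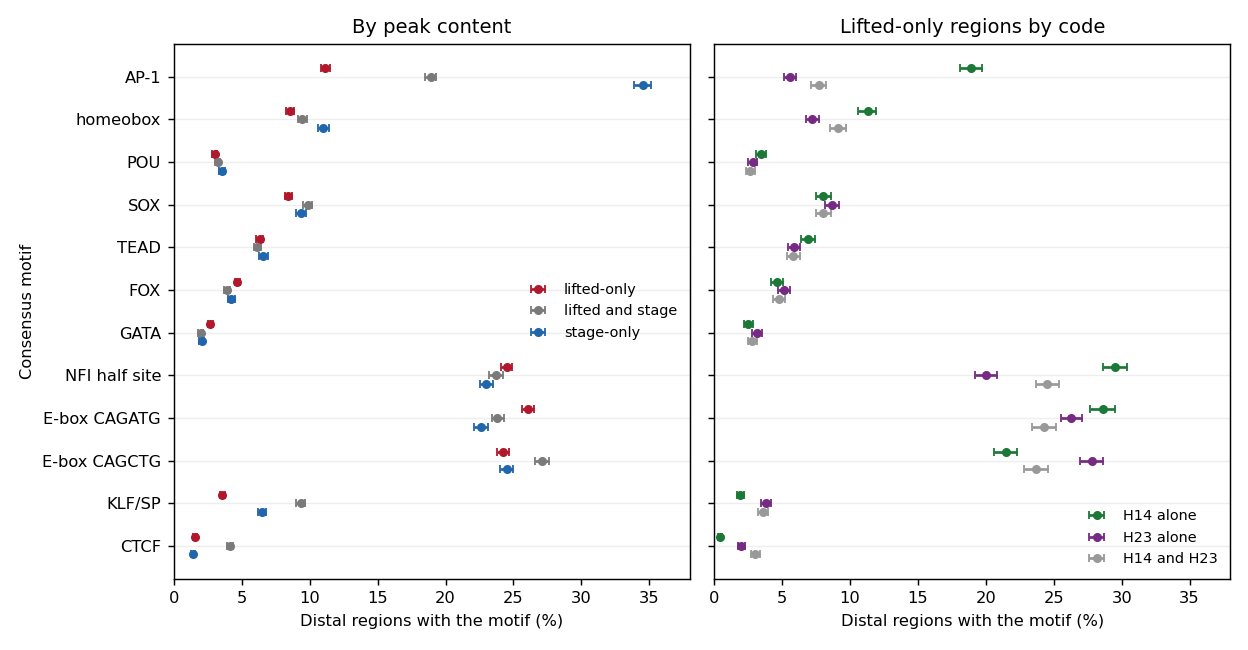
Percent of distal regions with each motif (horizontal axis) by motif (vertical axis); left, lifted-only regions (red), regions with lifted and stage peaks (grey) and stage-only regions (blue); right, lifted-only regions of H14 alone (green), H23 alone (purple) and both (grey). Bars are exact 95% intervals, and AP-1 stands at 11.1%, 18.9% and 34.5% on the left and at 18.9% and 5.57% for the single codes on the right.

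A small group of lifted-only regions received many lifted peaks. In 907 regions, or 2.25% (2.11 to 2.40), at least 1 code had several peaks, against 11.3% of regions with both kinds of peak. Lifted peak names are numbered too, and in 442 of the 907, or 48.7% (45.4 to 52.0), peaks of 1 code had numbers over 1000 apart. That share was 16.8% (15.8 to 17.8) in the other group. Over all regions the order was the reverse: such distant numbers met in 1.10% of lifted-only regions and in 1.90% of regions with both kinds of peak. Those with 4 or more peaks of a code numbered 59, or 0.146%. The central 50 bases occurred more than once in the macaque genome in 2.19% (2.05 to 2.33) of lifted-only regions, 1.06% of those with both kinds of peak and 4.26% of stage-only regions.

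The distal regions with the most lifted peaks show this pattern by name. The pseudogene region (chr10:36520813-36521668), which lies outside protein-coding and lncRNA genes, held 21 lifted peaks, 7 of H14, 1 of H16, 6 of H22 and 7 of H23, with numbers up to 46632 apart. In its interval 6 E50, 7 E80 and 5 E85 numbers were missing and 0 of E60. A region on chromosome 20 (chr20:14702617-14703537) held 20, 5 of each code. The NSF intron region (chr16:57290708-57291265) also held 20, 5 of each code, with numbers up to 47869 apart. NSF encodes an ATPase of vesicle fusion. The mitochondrial-like region (chr3:169153146-169153900) held 16, and 45 of its 25-base words matched the mitochondrial genome. Only 4 lifted-only regions had 20 or more such matches, against 69 stage-only regions.

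Further regions of this kind lay near genes of neurons and of the zinc finger family. An intron of SRGAP2, a gene of neuronal migration and spine maturation that is known for its human duplications, held a region (chr1:63746218-63746855) with 14 lifted peaks, 3 or 4 of each code. An intron of IGSF3 held 13 lifted peaks (chr1:107667856-107669175). Near ZNF229, regions of 14 and 13 lifted peaks lay 6859 and 19403 bp from its start. The remaining 2 of the 10, on chromosomes 11 and 10, held 14 and 13. The central 50 bases of 8 of the 10 occurred once in the macaque genome.

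The widest autosomal members of H23, H14 and H16, each alone, were intergenic: H23 (9189 bp, chr1:68997492-69006680), H14 (6803 bp, chr7:121546398-121553200) and H16 (4410 bp, chr13:105942295-105946704). The central 50 bases of the H23 region occurred 37 times in the genome, and those of the other two occurred once. No stage number was missing around any of them.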

How the data were processed

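The data were peak names from ATAC-seq of macaque cortex cells, 8 libraries of 4 stages. Tools and build, per the submitters' processing notes, were Bowtie2 2.5.1, cutadapt 4.4, SAMtools 1.15 and rheMac10. How peaks were called, lifted, merged and filtered is not given in the sources used here. A headerless table was deposited; its positions and peak names were used as deposited. Another 8 columns of values carry no names and were not used, so depth per library was not used here. Deposited starts count from 0 (8 regions start at 0), and 1 was added, so widths are 1 base below the deposited width column. Gene models were NCBI's for Mmul_10, with 21122 protein-coding genes.

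Members and lists were chosen with earlier results of these data known. Loci and promoters with the most members, the 3 leading members of each list, listed genes with a lifted-only promoter and the most extreme regions were named. Intervals are exact Clopper-Pearson. Of 268 list entries, 266 were found; TUBB3 and RPS6 were not. GC values at another set's GC content weight 8 GC classes. Missing numbers were examined after the data were seen. The counting was tested on simulated data. Python 3.11.15, pandas 2.3.3, SciPy 1.17.1 and pysam 0.24.0 were used. Alternatives were other windows, chromosomes, widths and peak sets. Some named results are not reported here.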

Additional observations from a re-analysis of the deposited data

How the results depend on the processing

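No paired analysis was possible because the peak sets carry no replicates. Of 89 alternatives, 55 left the value within its interval (for counts, within 1.5 times), 34 moved it, and the lifted-only promoter share stayed below the stage share of 23.2% wherever both were computed. The lifted-only promoter share was 4.28% and 10.5% with windows of 500 and 2000 bp, 5.54% with protein-coding starts, 6.25% for regions of at most 1000 bp and 7.35% over peaks. It was 7.46% with the E60 set left out, 4.59% for regions at least 1000 bp from a stage region, and 7.53% and 6.23% without H14 and without H23. Stage regions had 20.9%, 26.7%, 21.6% and 13.5% with windows of 500 and 2000 bp, protein-coding starts and regions of at most 1000 bp. Median width was 265 bp for 1 code, and 321 and 310 bp with E60 or E80 left out. The share with several codes was 45.1% up to 1000 bp, and 49.1% and 47.3% with E60 or E80 left out. AP-1 was in 12.9% of whole regions and 8.98% with 100 bp on each side, where both comparison classes stayed higher (26.9% and 36.9%, 14.9% and 30.8%). It was in 10.7% and 12.5% with E60 or E80 left out, and its reversed letters in 5.69%. Distal GC was 47.6% over whole regions and 47.2% with E60 left out. Loci with lifted-only regions alone numbered 2288 over distal regions.

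An alternative added after the data were seen left out lifted-only regions in an interval with a missing stage number. Regions with a stage peak in such intervals stayed. The promoter share was then 5.81%, median width 303 bp, several codes 44.8%, CTCF 1.37% and distal GC 46.5%. The counts, which this removal can only lower, were 344 genes with a lifted-only promoter and 411 loci with lifted-only regions alone. AP-1 was in 10.9%. Leaving out the E60 set raised the number of lifted-only regions to 46333, the largest shift among the stages. Depth per library was not used, so a region near the calling threshold cannot be told from a closed one.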
